A study of Mus musculus with 10 samples.

Results

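Mouse trophoblast stem cells (TSCs) that had spent 6 days without Fgf4, Tgfb and heparin (differentiated TSCs) were compared with TSCs kept in the complete medium, called Tx. Each side is 1 plate of single sorted cells, so the unit here is the well, and wells with at least 2000 UMIs (molecular tags, each read as 1 transcript) outside mitochondrial genes were taken. This left 318 of 384 wells on each plate, 636 of the 1192 wells that pass in all 4 single-cell libraries of the series. At that minimum the nearest wells held 1978 and 2006 UMIs on the differentiated plate and 1987 and 2077 on the TSC plate. Both cell types are labelled F4, with a C57BL/6J background and a GFP cassette integrated at random, and the TSCs came from the Rossant lab. For the differentiated cells, TSCs were first plated in Tx and the medium was later renewed without growth factors. How many animals, clones or cultures stand behind each plate is not given in the sources used here. As reference, values are also given from newly derived TSCs in LT21 medium (pTSC, 299 wells) and from pTS1 pTSCs recovered from blastoids, stem cell aggregates that resemble a blastocyst (blastoid pTSC, 257 wells), both with the same background and cassette. A replicated second readout came from bulk RNA of TSCs whose CDX2 carries an eGFP reporter, sorted by its brightness into CDX2-high and CDX2-low cells (3 libraries each).

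TSCs are the cultured counterpart of the polar trophectoderm, the part of the blastocyst wall that touches the inner cell mass. There FGF4, which signals through FGFR2 and the ERK kinases, keeps cells dividing under factors such as CDX2, EOMES, ELF5 and SOX2. When FGF4 is withdrawn, trophoblast cells leave the stem state and can become giant cells, which copy DNA without dividing and invade the uterus, or cells of the spongiotrophoblast and of the syncytial layers that exchange nutrients and hormones.

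The differentiated library held 3254559 UMIs (median 8473 per well) and the TSC library 5388767 (median 15091). At an equal depth of 2000 UMIs per well the median number of genes was 1229 and 1233. Mitochondrial genes took a median of 22.4% of UMIs in differentiated wells and 13.1% in TSC wells (14.7% in pTSC and 19.1% in blastoid pTSC wells). The part of this in the results was not tested beyond a second scaling, which includes mitochondrial genes and moves the median log2 ratio of all genes from 0.05 to -0.11. Levels below are UMIs summed over wells and scaled to equal library totals outside mitochondrial genes (CPM). They compare 1 gene between libraries and not different genes. With 1 library a side there is no replicate check and no test, all intervals are 95% intervals for counting error only, and "higher" or "lower" means a CPM that differs at least 2-fold, a rule of size.

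The libraries differed in sex-linked RNAs. Y-linked genes (Ddx3y, Eif2s3y, Kdm5d, Usp9y and Uty) held 226 UMIs in the differentiated library, found in 43.7% of its wells, and 0 in the TSC library (a count of 0 allows up to 3). Xist, the RNA that coats an inactive X chromosome, held 14 UMIs against 1515, and was seen in 3.46% of differentiated and 78.3% of TSC wells. Both libraries carry the name F4, and with 1 library a side any difference between the cells plated and the effect of the medium cannot be told apart. Results below are on autosomes.

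Whole autosomes also stood apart. Genes of chromosomes 1, 6 and 10 were shifted upward together in the differentiated library, with median log2 ratios over TSCs of 0.63 (845 genes), 0.44 (591 genes) and 0.54 (548 genes), that is 1.55-fold, 1.35-fold and 1.45-fold. The other 16 autosomes had medians from -0.17 to 0.09. Along the chromosomes the shift was spread out: with each chromosome divided by gene order into 4 stretches, all 12 stretches of these chromosomes had medians between 0.31 and 0.80, against -0.47 to 0.31 for the 64 stretches of the others. Among genes with at least 50 counts, the differentiated library lay above the pTSC library by 0.52, 0.54 and 0.63 (log2 medians for chromosomes 1, 6 and 10) and above the blastoid library by 0.42, 0.48 and 0.59, whereas TSCs against pTSCs gave -0.02, 0.10 and 0.12.

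The shift was present in nearly every well. Chromosomes 1, 6 and 10 together gave a median of 21.2% of a differentiated well's UMIs (5th to 95th percentile 19.4 to 22.8) and 14.4% of a TSC well's (13.5 to 15.4), with medians of 14.1% in pTSC and 14.6% in blastoid pTSC wells. Of the 318 differentiated wells, 315 lay above the highest TSC well, at 17.2%. In the 17 differentiated wells in which, at 2000 UMIs, Eomes or Nat8l but none of Vnn1, Serpine2 and Cryab was detected, the share was 19.4 to 22.2%, close to the 21.2% median of the 214 wells with the opposite pattern. Of all genes at least 2-fold higher in differentiated TSCs, 30.6% (627 of 2046) lie on these chromosomes, which hold 1984 of the 11738 genes measured. Of their genes 31.6% were higher, against 14.5% of those on the other 16 autosomes. DNA copy number was not measured, and the cause was not tested. For the main genes that are higher and lie on these chromosomes, a log2 value relative to their own chromosome's median is given beside the ratio.

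**Figure D1:**
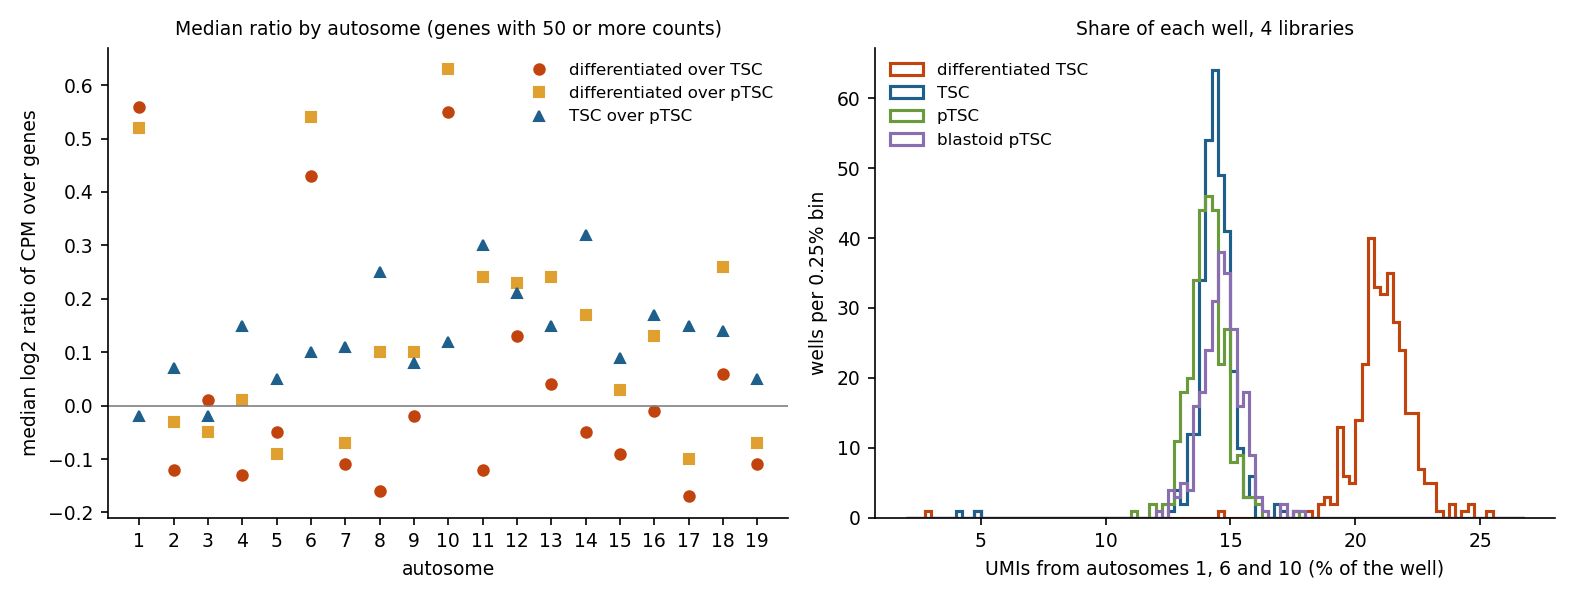
Left: median log2 ratio of CPM over the genes of each autosome (genes with 50 or more counts in the pair) for differentiated TSCs over TSCs (circles), differentiated TSCs over pTSCs (squares) and TSCs over pTSCs (triangles). Right: number of wells by the percentage of their UMIs from autosomes 1, 6 and 10, for the 4 libraries. Autosomes 1, 6 and 10 stand apart in both ratios that contain the differentiated library, whose wells have a median share of 21.2% against 14.4% in TSC wells.

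Across 11738 autosomal genes with at least 10 counts, 2046 (17.4%) were higher, 2093 (17.8%) lower and 7599 within 2-fold in differentiated TSCs. The median log2 ratio was 0.05 (5th to 95th percentile -2.08 to 1.95). With mitochondrial genes in the total, 1689 were higher and 2477 lower. The counting interval lay wholly beyond 2-fold for 753 higher and 759 lower genes, and 120 were at least 10-fold higher and 137 at least 10-fold lower. These shares are the background against which each gene list is read. A list's counts and median describe its members, and the lists share some genes.

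The 5 marker genes, chosen with earlier results of these data known, differed between the plates, though not in every well. They describe the plates and are no check of the labels. Vnn1, a pantetheinase, stood at 347 CPM against 11.9 (29.2-fold, 22.7 to 38.2). Serpine2, a protease inhibitor of the extracellular space, stood at 1056 against 99.8 CPM (10.6-fold, 9.65 to 11.6), and Cryab, a small heat shock protein, at 504 against 47.7 (10.6-fold, 9.26 to 12.1). Serpine2 lies on chromosome 1 and Vnn1 on chromosome 10, and relative to these chromosomes their log2 ratios were 2.77 in place of 3.40 and 4.33 in place of 4.87. At 2000 UMIs, 67.3% of differentiated wells (exact binomial interval 61.8 to 72.4) had a UMI of Vnn1, Serpine2 or Cryab without Eomes or Nat8l, against 12.3% of TSC wells (8.87 to 16.4). The reverse, Eomes or Nat8l alone, held for 5.35% (3.14 to 8.42) and 52.5% (46.9 to 58.1). Wells with RNA of both kinds were about as frequent on the 2 plates, at 12.6% (9.14 to 16.7) and 13.5% (9.96 to 17.8).

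The 15 genes with the largest excess (50 CPM or more and a UMI in 25% or more of wells) have varied roles. Timp2, an inhibitor of matrix metalloproteases, was 14.6-fold higher (149 against 10.2 CPM), the serine protease Prss23 13.5-fold (77.4 against 5.75), Lims2, a LIM protein of focal adhesions, 11.7-fold (139 against 11.9) and Gpnmb, a glycoprotein of lysosomes and the cell surface, 21.5-fold (104 against 4.82; 3.99 on the log2 scale relative to chromosome 6, where it lies). Rdh10, which makes retinaldehyde from retinol, was 9.91-fold higher (114 against 11.5 CPM) and Rgs16, a brake on G-protein signalling, 8.76-fold (117 against 13.4). Relative to chromosome 1 their log2 ratios were 2.68 and 2.5. Fbxo32, a ubiquitin ligase adaptor known from wasting muscle, was 9.90-fold higher (101 against 10.2 CPM), and the histone gene Hist1h2bc 8.24-fold (196 against 23.8), a family with near-identical copies whose reads may be split. Serpinb9b, of a serpin cluster active in placenta, stood at 273 against 19.3 CPM (14.1-fold, 11.5 to 17.5), and the iodide transporter Slc5a5 at 167 against 18 (9.30-fold, 7.48 to 11.7).

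For part of the genes with the largest ratios, the reference libraries show which side stood apart. Gdpd3, a lysophospholipase, was at 123 CPM in differentiated TSCs and at 0.371, 0.41 and 0.432 in TSC, pTSC and blastoid pTSC. H19, an imprinted RNA, was at 11.4 CPM in differentiated TSCs and at 6295, 6506 and 6970 in the other libraries. In both cases the differentiated library is the one that differs. For Gnpda1, a glucosamine-6-phosphate deaminase, the TSC library differs: 75.9 CPM in differentiated TSCs, 0.371 in TSCs, 75.1 in pTSCs and 98.9 in blastoid pTSCs. The splicing factor gene Cwc22 is another such case, at 0.922, 58.1, 0 and 0.432 CPM in the same order, and so is the dipeptidase gene Dpep3, at 2.46, 76.1, 2.87 and 3.89. Slc23a1, a vitamin C transporter, stood at 5.22, 116, 6.97 and 21.2 CPM. For these genes the differentiated library lay close to at least 1 other stem cell library, and whether the medium or the cells plated account for it was not tested.

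Lower genes of the same rank included Cstf2t, a relative of a polyadenylation factor (0.307 against 103 CPM), and Tmem114 (2.15 against 144). Also lower were Eif3j2, a translation initiation subunit (5.22 against 157), Olfml2a, of the matrix (2.15 against 62), and Smim20, which serves cytochrome oxidase assembly (5.22 against 103). Ccnb1ip1 stood at 3.07 against 61.1 CPM and Chac1, which degrades glutathione, at 9.53 against 156 (16.4-fold, 11.5 to 24.3). Cstf2t and Eif3j2 have close copies elsewhere in the genome, and how reads were divided between copies is not given in the sources used here. In pTSCs the levels were 41.8 CPM for Cstf2t, 150 for Tmem114, 81.6 for Eif3j2, 110 for Olfml2a, 96.8 for Smim20, 23.8 for Ccnb1ip1 and 161 for Chac1, each above the differentiated library.

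**Figure D2:**
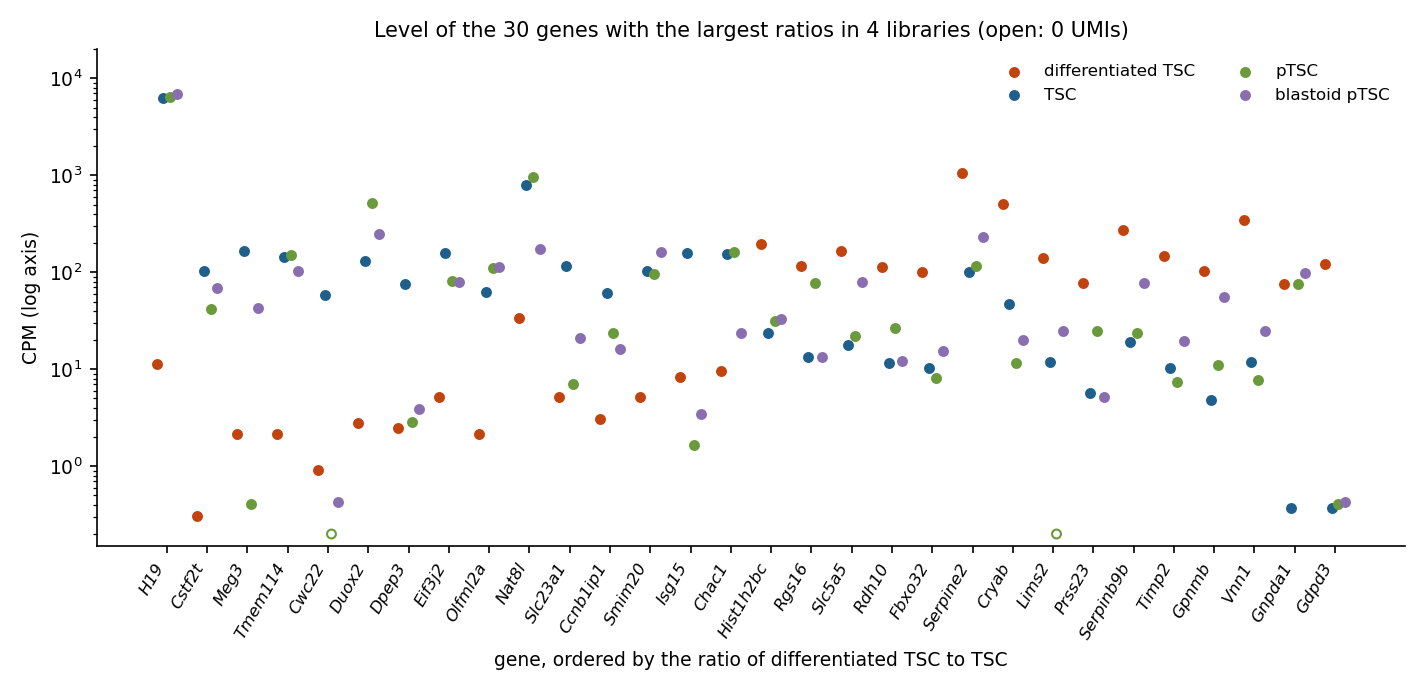
CPM (log axis) of the 15 autosomal genes with the largest deficit (left) and the 15 with the largest excess (right) in differentiated TSCs relative to TSCs, in each of the 4 single-cell libraries (1 point per library, open at 0 UMIs). Gdpd3 and H19 differ in the differentiated library alone, Gnpda1 and Cwc22 in the TSC library alone.

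Of 19 measured members of the TSC factor list 13 were lower, 4 within 2-fold and 2 higher, with a median log2 ratio of -2.09 (-2.03 against pTSCs). The interval lay wholly beyond 2-fold for 12 of the 13. Sox21, a SOX factor, was at 30.1 against 160 CPM (5.31-fold lower, 4.30 to 6.61), Zic2, a zinc finger factor, at 6.15 against 30.2 (4.92-fold, 3.08 to 8.27), and the RNA-binding protein gene Lin28a at 39.6 against 173 (4.36-fold, 3.62 to 5.28). Fgfr2, the receptor for FGF4, was at 7.37 against 44.5 CPM (6.04-fold lower, 3.96 to 9.61). Id2, an inhibitor of bHLH factors, was at 592 against 2653 CPM (4.48-fold, 4.27 to 4.70) and was detected in 42.8% against 88.7% of wells at 2000 UMIs. Cdx2 had 8 UMIs against 269, Elf5 2 against 204, Tfap2c 3 against 38 and Tet1 1 against 36. Tfap2c had a mean of 225 CPM in bulk CDX2-high libraries, so its few single-cell UMIs limit what they show.

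The members within 2-fold were Klf5, Ets2, Gata3 and Tead4. Klf5 was at 423 against 376 CPM, Ets2 at 317 against 228, Gata3 at 347 against 487 and Tead4, on chromosome 6, at 169 against 111, and a UMI of Gata3 was found in 44.3% against 57.9% of wells at 2000 UMIs. Sox2 and Eomes kept a level in part of the cells: 23.3% of differentiated wells had a UMI of Sox2 (62.6% of TSC wells) and 15.7% of Eomes (43.7%). Id1 and Id3, BMP-responsive relatives of Id2, went the other way, at 10.4 against 2.23 CPM (4.69-fold higher, 2.37 to 9.95) and 15.1 against 7.05 (2.14-fold, 1.37 to 3.35, and within 2-fold with mitochondrial genes in the total or a minimum of 5000 UMIs per well). Summed over the list, a TSC well at 2000 UMIs held a median of 11 UMIs and a differentiated well 4, and 49.1% of differentiated wells were at or below the TSC wells' 10th percentile.

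Markers of polar trophectoderm were lower in 6 of 8 members and higher in none (median -1.89, and -3.10 against pTSCs, where levels were higher still). Nat8l, which makes N-acetylaspartate, was at 34.1 CPM against 788 in TSCs and 960 in pTSCs, and was found in 4.09% against 50.9% of wells at 2000 UMIs. The dual oxidase Duox2 had 2.77 against 132 CPM (522 in pTSCs) and its partner Duoxa2 1.54 against 8.91 (61.1 in pTSCs). Ddah1, which breaks down methylarginines, was at 42.7 against 454 CPM. Utf1 (493 against 741) and the glutathione transferase Gsto1 (1201 against 1034, and 10333 in pTSCs) were within 2-fold of TSCs.

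Of the mural trophectoderm list, the part of the wall away from the inner cell mass, 5 of 13 members were higher and 1 lower, with a median of 0.10 (-0.06 with mitochondrial genes in the total). The keratin Krt8 was at 2224 against 350 CPM (6.36-fold, 6.04 to 6.69) and in 84.9% against 35.2% of wells at 2000 UMIs. The galectin Lgals3 was at 28.3 against 2.23 (12.7-fold, 6.93 to 25.5), and the VEGF receptor Flt1 at 552 against 103 (5.38-fold, 4.89 to 5.93). Basp1, at 1673 against 1556 CPM, and the keratin Krt19, at 48.2 against 60.3, were within 2-fold, and the glucose transporter Slc2a3 was 3.42-fold lower (2.43 to 4.94).

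Factors that direct differentiation split by member. Of 18 measured, 6 were higher and 4 lower (median 0.69, and 0.41 against pTSCs). Bhlhe40, a bHLH factor, stood at 274 against 40.5 CPM (6.77-fold, 5.84 to 7.89). The zinc finger gene Plagl1, an imprinted regulator, stood at 32.6 against 8.17 (3.99-fold, 2.78 to 5.81). They lie on chromosomes 6 and 10, with log2 values of 2.32 and 1.46 relative to these, and in pTSCs they were at 283 and 36.5 CPM, close to the differentiated values. Dlx3, a homeobox gene of the labyrinth, was at 58.1 CPM against 15 in TSCs and 3.28 in pTSCs (3.86-fold over TSCs, 2.96 to 5.08), and Msx2 at 506 against 240 (2.11-fold, 1.96 to 2.27, and within 2-fold with mitochondrial genes in the total). Cebpb, of the C/EBP family, fell just short of 2-fold at 712 against 373 CPM (1.91-fold, 1.80 to 2.03). Gcm1, the factor of syncytiotrophoblast formation, was at 10.1 against 5.20 CPM (1.95-fold, 1.14 to 3.35), with 0 UMIs in pTSCs. Hand1, a giant cell factor, was at 3 UMIs against 14 and Ascl2, of the ectoplacental cone, at 0 against 19 (3.83-fold lower with the 0 set to 3). In bulk TSCs Hand1 was at 144 to 190 CPM in CDX2-high and 215 to 300 in CDX2-low libraries. Its few single-cell UMIs therefore limit what they show of its level.

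Products of the mature placenta were higher in most measured members, but in few wells. Of 14 measured, 10 were higher and 2 lower (median 2.62, and 3.67 against pTSCs), while 9 further members had under 10 counts, so the members that could be measured are in part those high on one side. Hsd11b2, which inactivates glucocorticoids, was at 52.5 against 1.67 CPM (31.5-fold, 16.2 to 70), and Serpinb9e at 228 against 24.7 (9.22-fold, 7.66 to 11.2). The pregnancy-specific glycoprotein gene Psg17 was at 11.1 against 0.928 (11.9-fold, 4.66 to 38.9). The syncytin gene Syna, which fuses cells of the syncytial layer, had 12 UMIs against 0 (6.62-fold higher with the 0 set to 3). The prolactin family gene Prl8a9 had 18 against 0 (9.93-fold, set likewise). Gjb2, a gap junction protein, was at 275 against 136 CPM (2.02-fold, 1.83 to 2.23) and within 2-fold when the 5% of wells with the most UMIs were left out, with mitochondrial genes in the total, or with the median set to 0. Rgs5 was at 39.6 against 1.11 CPM (log2 4.52 relative to chromosome 1), with a UMI in 2.83% of wells at 2000 UMIs. The proton-linked monocarboxylate transporter Slc16a1 (266 against 334) and the placental cathepsin Ctsr (24.0 against 39.3) were within 2-fold. A differentiated well at 2000 UMIs held a median of 1 UMI of the whole list, as did a TSC well, and the 90th percentiles were 10 and 2.

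**Figure D3:**
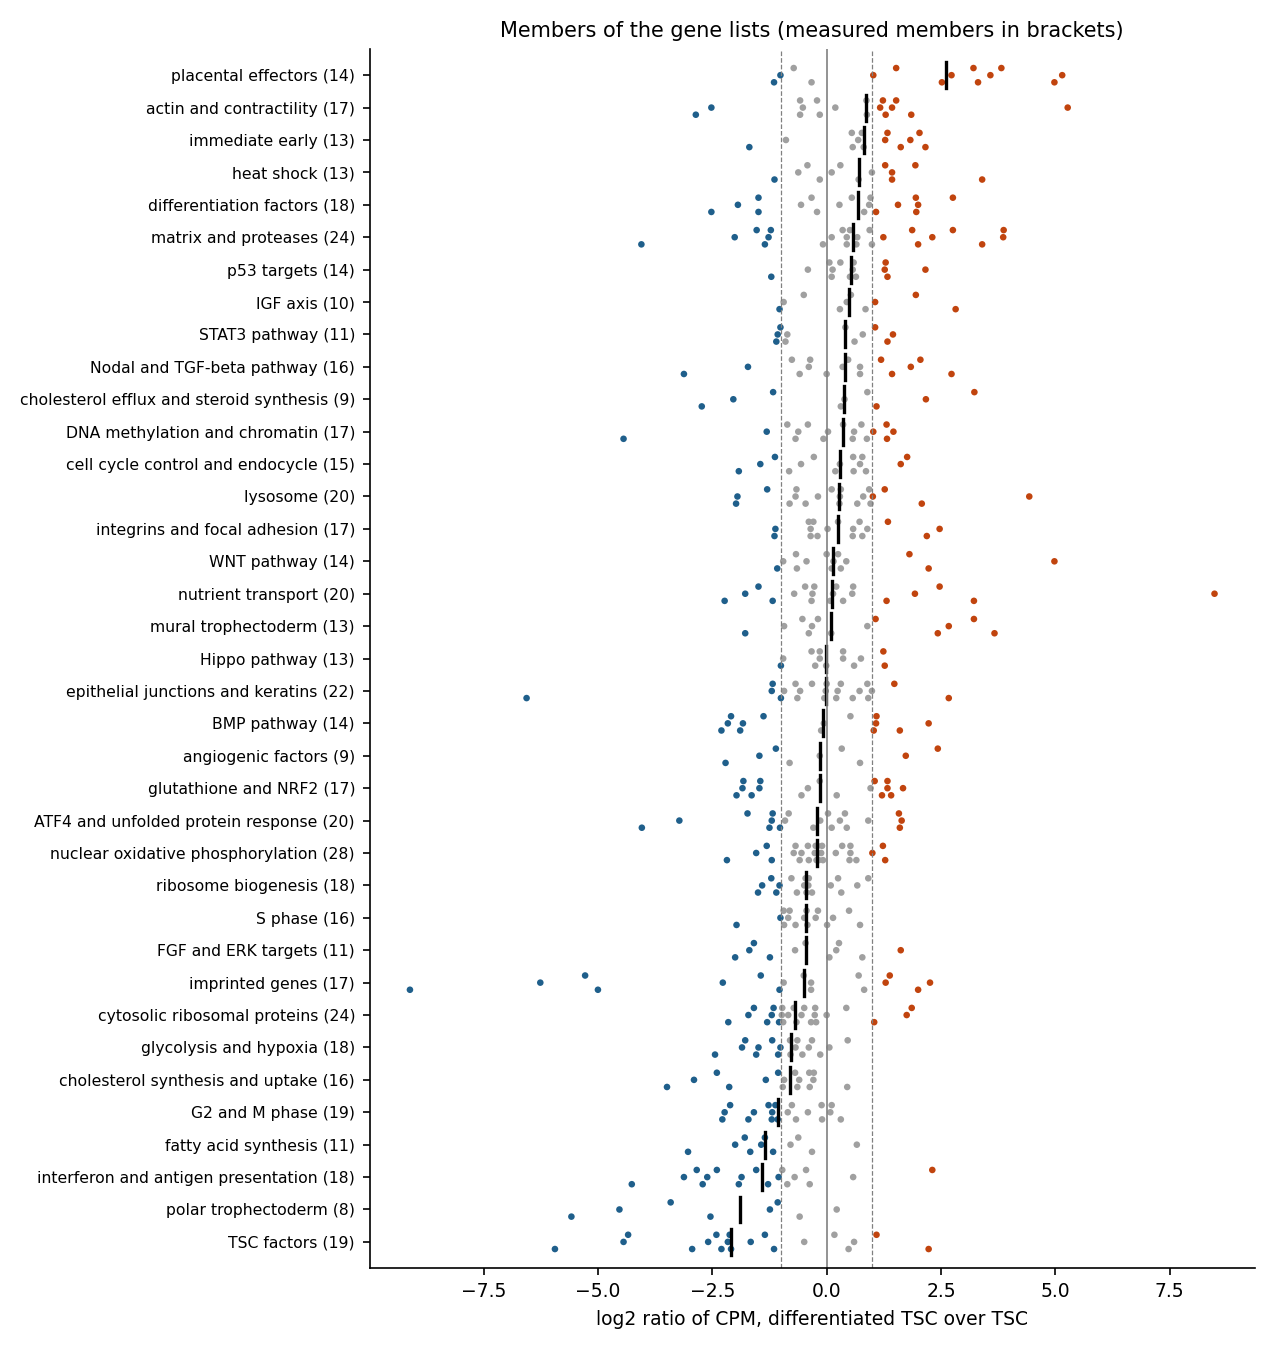
Log2 ratio of CPM, differentiated TSCs over TSCs, for the measured members of 37 gene lists ordered by median (black bars); dashed lines mark 2-fold, orange points are higher and blue points lower. The TSC factor list has a median of -2.09 and the placental effector list of 2.62, beside 0.05 over all genes.

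Imprinted genes, many of which set placental growth, spread over log2 ratios from -9.11 to 2.26 (4 of 17 higher, 7 lower, median -0.50). H19 was found in 0.943% of differentiated and 89.6% of TSC wells at 2000 UMIs, whereas its neighbour Igf2 was at 55 against 77.9 CPM (1.42-fold lower, 1.19 to 1.70). In the bulk TSC libraries Igf2 was at 7786 to 10451 CPM, far above both single-cell libraries. The reason for this gap was not tested, and it limits what the single-cell level of Igf2 shows. Such gaps were not limited to Igf2. Slc7a14 had a mean of 5638 CPM in CDX2-high libraries and 1.48 CPM in single-cell TSCs, and Hmga2 936 and 2.41. Other genes stood higher in single-cell TSCs, such as Id2, at 2653 CPM against a CDX2-high mean of 215. The RNAs of the Meg3 cluster were lower together. Meg3 had 7 UMIs against 888, Rian 4 against 258 and Mirg 1 against 53. In pTSCs these held 1, 2 and 0 UMIs, and in blastoid pTSCs Meg3 was at 43.2 CPM, so the stem cell libraries differ among themselves for this cluster. Ndn, of the Prader-Willi region, was at 117 against 24.5 CPM (4.79-fold higher, 3.92 to 5.89), the antisense RNA Kcnq1ot1 at 873 against 336 (2.60-fold, 2.45 to 2.75) and Airn, antisense to Igf2r, at 20 against 8.17 (2.45-fold, 1.64 to 3.67). Igf2r itself was at 210 against 430 CPM (2.04-fold lower, 1.88 to 2.23, and within 2-fold in thinned wells or with each autosome centred). Whether the counting used strand is not given in the sources used here. Phlda2, which restrains placental growth, was at 598 against 755 CPM (55 in pTSCs), and Cd81 at 436 against 267.

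In the matrix and protease list 8 of 24 members were higher and 6 lower (median 0.58, and -0.36 against pTSCs). Beside Serpine2 and Timp2, Timp3 was at 26.4 against 3.90 CPM (6.78-fold, 4.17 to 11.5, and log2 2.22 relative to chromosome 10). Lamb1, a laminin chain of the basement membrane, was lower at 59.9 against 241 CPM (4.03-fold, 3.46 to 4.71). Among the members named as nearest to equal were 2 chains of the same membrane, the collagen Col4a2 (1010 against 795 CPM) and the laminin Lama5 (54.4 against 50.5). Its other chains on the list are not named here. Of the integrin and focal adhesion list 3 of 17 were higher and 2 lower (median 0.25, and 0 lower with each autosome centred). Zyx, a zyxin that senses tension at adhesions, was at 998 against 180 CPM (5.55-fold, 5.17 to 5.97, and log2 2.04 relative to chromosome 6) and in 64.5% against 22% of wells at 2000 UMIs. The integrin subunit gene Itgb5 was at 28.3 against 11.1 (2.54-fold, 1.81 to 3.58), while Itgb1 (843 against 833) and talin, Tln1 (599 against 505), were within 2-fold.

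Genes of the actin list went in both directions. Of 17, 7 were higher and 2 lower (median 0.87, which is 0.36 with each autosome centred and -0.15 without chromosomes 1, 6 and 10). Profilin, Pfn1, which feeds actin monomers to filaments, was at 321 against 1835 CPM (5.72-fold lower, 5.37 to 6.10) and in 45.6% against 96.9% of wells at 2000 UMIs. Tropomyosin Tpm4, which decorates filaments, was at 1200 against 333 (3.60-fold higher, 3.41 to 3.81) and calponin Cnn2 at 1782 against 620 (2.87-fold, 2.75 to 3, and under 2-fold relative to its chromosome 10). Vim, a filament protein of mesenchymal cells, had 70 UMIs against 0 (38.6-fold higher with the 0 set to 3), in 3.77% of differentiated wells at 2000 UMIs. In the bulk libraries Vim was present in TSCs, at 260, 276 and 283 CPM in CDX2-high and 154, 108 and 163 in CDX2-low cells (log2 low over high -0.94, adjusted p = 0.0279 by edgeR, and not passing by DESeq2 or without any 1 of the CDX2-high libraries or CDX2-low library 41). Cofilin, Cfl1 (2601 against 3729), and ezrin, Ezr (1410 against 1236), were within 2-fold.

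Epithelial junction genes and keratins were mostly within 2-fold, as were most autosomal genes (7599 of 11738). Of 22 members 16 were within 2-fold, 2 higher and 4 lower (median -0.01). The desmosomal protein gene Pkp2 was at 386 against 138 CPM (2.80-fold higher, 2.55 to 3.07), and the desmosomal cadherin gene Dsg2 (386 against 334) was within 2-fold. Claudins, which seal tight junctions, differed among themselves. Cldn7 had 1 UMI against 156, Cldn3 was at 76.2 against 175 CPM (2.30-fold lower, 1.99 to 2.65) and Cldn4 at 326 against 336. P-cadherin, Cdh3, was at 70.7 against 160 CPM (2.27-fold lower, 1.96 to 2.63).

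In the fatty acid synthesis list 7 of 11 members were lower, 4 within 2-fold and none higher (median -1.35, and -1.31 against pTSCs). Scd2, which puts the double bond into fatty acids, was at 1397 against 4832 CPM (3.46-fold lower, 3.35 to 3.57), its relative Scd1 at 191 against 513 (2.69-fold, 2.47 to 2.94) and the elongase Elovl6 at 52.8 against 212 (4.01-fold, 3.41 to 4.73). This held in most wells: the median well at 2000 UMIs had 4 UMIs of the list against 13, and 84% of differentiated wells were at or below the TSC wells' 10th percentile. In the cholesterol list 10 of 16 were within 2-fold, 6 lower and none higher (median -0.81, and -1.36 against pTSCs). Insig1, the sterol-responsive brake on this pathway, was at 39.6 against 446 CPM and the synthesis enzymes Msmo1 at 44.9 against 237 and Mvd at 80.8 against 355. Blastoid pTSCs had summed levels close to those of differentiated TSCs for both lists. The fatty acid list summed to 2322 CPM in differentiated TSCs, 6870 in TSCs, 7279 in pTSCs and 2345 in blastoid pTSCs, and the cholesterol list to 2242, 4263, 6341 and 2219 in the same order. Abca1, which exports cholesterol, was at 194 against 43.1 CPM (4.50-fold higher, 3.86 to 5.25), and Mylip, which degrades the LDL receptor, at 37.5 against 84.4 (2.25-fold lower, 1.84 to 2.77).

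The glycolysis and hypoxia list also holds glucose transporters and genes induced by low oxygen. Against TSCs, 8 of its 18 measured members were lower and none higher (median -0.79). Against pTSCs 5 of 16 were higher and 5 lower (median -0.76), and the list summed to 1347 CPM in differentiated TSCs, 2010 in TSCs and 1070 in pTSCs. In TSCs Tpi1 (679), Bnip3 (263) and Slc2a1 (232) held much of this sum. Against TSCs the interval lay wholly beyond 2-fold for 3 of them. Pfkl, a subunit of phosphofructokinase, was at 39.6 against 143 CPM (3.60-fold lower, 2.99 to 4.38) despite its place on chromosome 10, and Gpi1 at 9.22 against 26.7 (2.90-fold, 1.95 to 4.45). Tpi1 (518 against 679) and Bnip3, a mitophagy receptor induced by low oxygen (275 against 263), were within 2-fold. Nuclear subunits of oxidative phosphorylation were within 2-fold in 22 of 28 cases (2 higher, 4 lower, median -0.21). Ndufv2 of complex I was at 26.1 against 118 CPM (4.52-fold lower, 3.60 to 5.74) and Uqcrq of complex III at 35.6 against 104 (2.91-fold, 2.38 to 3.59). Both higher members, Cox5b (82 against 34.9) and Ndufa5 (45.2 against 18.6), lie on chromosomes 1 and 6 and are within 2-fold relative to these.

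Of 24 ribosomal protein genes 14 were within 2-fold, 7 lower and 3 higher (median -0.69), and the median well at 2000 UMIs held 41 UMIs of them against 64, with 80.2% of differentiated wells at or below the TSC wells' 10th percentile. Rps24 was at 517 against 2297 CPM (4.44-fold lower, 4.22 to 4.68) and Rpl37 at 698 against 2279 (3.27-fold, 3.12 to 3.42). Rplp0 went the other way, at 2407 CPM in differentiated TSCs, 714 in TSCs, 4372 in pTSCs and 3463 in blastoid pTSCs, where the TSC library is the low one. Ribosomal protein genes have many processed copies, and their counts are uncertain for that reason. Of 18 ribosome biogenesis genes 13 were within 2-fold, 5 lower and none higher (median -0.45, and -0.87 against pTSCs), among them nucleophosmin, Npm1, at 663 against 1538 CPM (2.32-fold, 2.21 to 2.43) and fibrillarin, Fbl, at 54.1 against 153 (2.84-fold, 2.41 to 3.36).

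**Figure D4:**
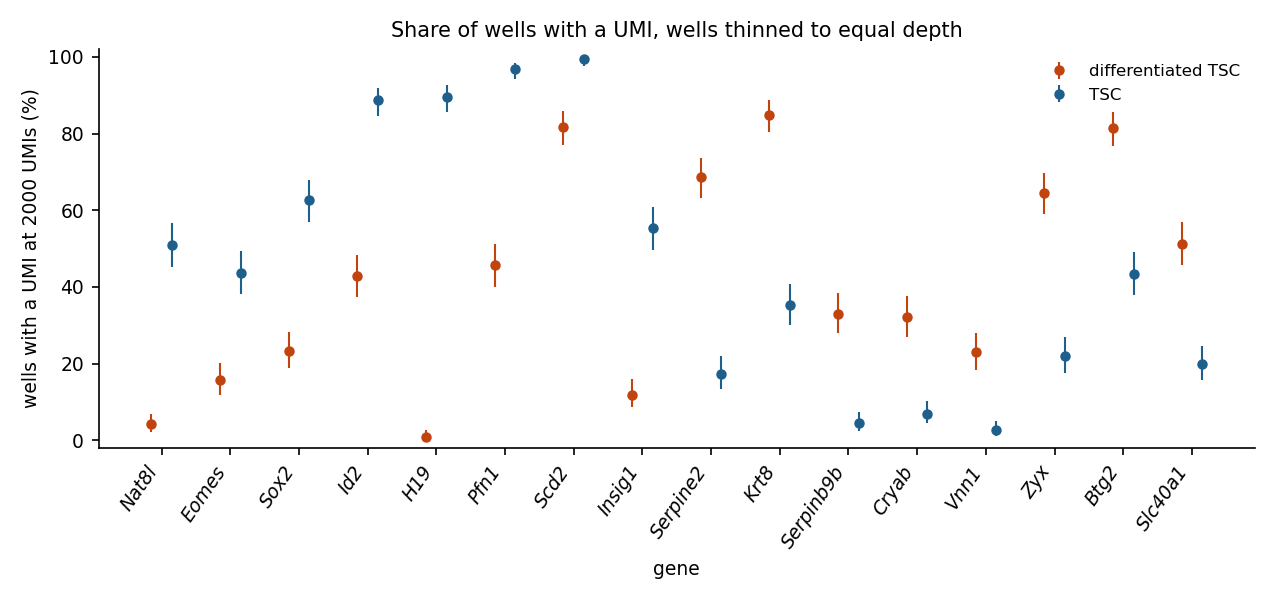
Share of wells with at least 1 UMI after each well was thinned to 2000 UMIs (points, 318 wells a library, with exact 95% binomial intervals for counting error) for 16 named genes in differentiated TSCs and TSCs. Nat8l was found in 4.09% against 50.9% of wells and Krt8 in 84.9% against 35.2%.

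Shares at 2000 UMIs miss molecules that deeper wells hold, and TSC wells are deeper. With all UMIs, Nat8l was found in 7.86% of differentiated and 83.3% of TSC wells, Eomes in 32.4% and 81.4%, Sox2 in 45.6% and 88.7%, Id2 in 62.9% and 98.7%, Gata3 in 77% and 92.1%, H19 in 1.89% and 99.7% and Pfn1 in 87.4% and 99.7%. Krt8 was found in 97.2% and 80.5%, Serpine2 in 90.9% and 54.4%, Cryab in 59.1% and 31.4%, Vnn1 in 47.8% and 11.3%, Zyx in 90.6% and 69.8%, Slc40a1 in 84.9% and 62.9%, Slc34a2 in 19.2% and 0.314%, Rgs5 in 12.9% and 1.57% and Vim in 10.7% and 0. Isg15 was found in 7.23% and 56% and Ifitm3 in 21.7% and 73.9%. The direction was that of the thinned shares for each of these genes.

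Part of the mitotic genes were lower, while most replication genes were within 2-fold. Of 19 genes of the G2 and M phases 10 were lower and none higher (median -1.07, and -0.63 against pTSCs). Ccnb1, the cyclin of mitotic entry, was at 9.83 against 46.2 CPM (4.70-fold, 3.24 to 7.02), the mitotic kinase Plk1 at 117 against 505 (4.31-fold, 3.87 to 4.81) and survivin, Birc5, at 52.2 against 254 (4.86-fold, 4.14 to 5.73). The motor Kif11 (150 against 142) and the kinetochore gene Cenpe (269 against 290) were within 2-fold. Of 16 S phase genes 14 were within 2-fold and 2 lower (median -0.46), with Rrm2, a subunit of ribonucleotide reductase, at 220 against 442 CPM and the helicase subunit Mcm2 at 249 against 283. Cells with mitotic RNA remained: the 90th percentile of summed G2 and M phase UMIs was 15.3 in differentiated and 20 in TSC wells, with medians of 4 and 10. Among cell cycle regulators the CDK inhibitor gene Cdkn2b was at 105 against 31 CPM (3.38-fold higher, 2.80 to 4.09) and its neighbour Cdkn2a at 13.2 against 36.2 (2.74-fold lower, 1.96 to 3.90). Ccne1, the cyclin of S phase entry, was at 300 against 364 and E2f7, which acts in endocycles, at 110 against 89.6.

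Targets of ERK signalling differed in direction. Of 11 FGF and ERK targets 4 were lower and 1 higher (median -0.46, and -1.51 against pTSCs). The feedback inhibitors Spred1 (14.4 against 57.7 CPM, 4-fold lower, 2.93 to 5.55), Spry2 (10.4 against 31.4, 3-fold, 2.07 to 4.48) and the ERK phosphatase Dusp6 (55.6 against 131, 2.36-fold, 2.0 to 2.79) were lower. Dusp5 (253 against 210), Ier3 (220 against 210) and Spred2 (188 against 162) were within 2-fold. Phlda1 was at 334 against 108 CPM (3.08-fold higher, 2.78 to 3.41, and log2 1.08 relative to chromosome 10), and at 442 in pTSCs.

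In the Nodal and TGF-beta pathway the ligand and its processing enzymes differed in direction. Nodal was at 56.8 against 13.7 CPM (4.14-fold higher, 3.14 to 5.50, and log2 1.51 relative to chromosome 10), while the convertases that cleave it were lower, Pcsk6 at 6.45 against 56.2 (8.71-fold, 5.60 to 14.3) and Furin at 9.83 against 32.3 (3.28-fold, 2.24 to 4.95). The receptor Tgfbr1 was at 52.5 CPM in both libraries. Over the list 5 of 16 were higher and 2 lower (median 0.41, but -0.31 with wells thinned to 2000 UMIs). In the BMP pathway 5 of 14 were higher and 6 lower (median -0.09). The ligand Bmp4 was at 27.7 against 118 CPM (4.27-fold lower, 3.42 to 5.38) and the inhibitory Smad6 at 38.7 against 191 (4.93-fold, 4.09 to 5.98). The receptor Bmpr2 was at 401 against 133 (3.02-fold higher, 2.76 to 3.32, and under 2-fold relative to chromosome 1), and Smad1 was at 63.3 against 65.9.

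WNT genes were within 2-fold in 10 of 14 cases (3 higher, 1 lower, median 0.13, and -0.05 with each autosome centred). The secreted inhibitor Dkk1 was at 344 against 73.1 CPM (4.70-fold higher, 4.18 to 5.28; 30.8 in pTSCs), and the receptor Fzd5 at 49.5 against 14.1 (3.51-fold, 2.65 to 4.67, and log2 1.18 relative to chromosome 1). Tcf7l1, a repressor at WNT targets, was at 594 against 498. In the IGF axis 3 of 10 were higher and 1 lower (median 0.49). Igfbp4, which sequesters insulin-like growth factors, was at 452 CPM against 64 in TSCs (7.06-fold higher, 6.28 to 7.97), but at 352 in pTSCs and 410 in blastoid pTSCs. In the STAT3 list 3 of 11 were higher and 3 lower (median 0.41), with the receptor Lifr at 32.9 against 12.1 CPM (2.73-fold higher, 1.98 to 3.77) and the feedback inhibitor Socs3 at 26.1 against 56 (2.15-fold lower, 1.68 to 2.76). Of 13 Hippo pathway genes 2 were higher and none lower (median -0.01), and the target Cyr61 was at 368 against 464 CPM.

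Stress and immediate early genes were higher in part. Of 13 immediate early genes 6 were higher and 1 lower (median 0.81, and 1.52 against pTSCs). Jun was at 765 against 215 CPM (3.55-fold, 3.31 to 3.81) and Klf2 at 186 against 45.5 (4.09-fold, 3.52 to 4.76), while Fos, at 643 against 432, was within 2-fold. At 2000 UMIs, 62.3% of differentiated wells were at or above the TSC wells' 90th percentile of this list. Btg2, an antiproliferative p53 target, was at 1496 against 334 CPM (4.48-fold, 4.24 to 4.73, and log2 1.53 relative to chromosome 1). Among 14 p53 targets 4 were higher and 1 lower (median 0.54), with the cyclin G1 gene Ccng1 at 2755 against 1123 (2.45-fold higher, 2.37 to 2.53) and the death effector Bax at 135 against 312 (2.31-fold lower, 2.08 to 2.57). Of 13 heat shock genes 5 were higher and 1 lower (median 0.70), with Hspa1b at 194 against 50.7 CPM (3.84-fold, 3.33 to 4.44) and its cochaperone Bag3 at 251 against 93.2 (2.70-fold, 2.41 to 3.02). The abundant Hsp90ab1 was at 4013 against 6154 CPM. The summed list per well had a median of 13 against 17 UMIs, although the median log2 ratio of its members was 0.70, within 2-fold.

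Redox genes divided. Of 17 glutathione and NRF2 genes 6 were higher and 6 lower (median -0.15). Hmox1, which degrades heme, was at 1247 against 471 CPM (2.65-fold higher, 2.52 to 2.79), Nqo1 at 60.2 against 18.9 (3.18-fold, 2.49 to 4.08) and Gclc, of glutathione synthesis, at 486 against 193 (2.51-fold, 2.32 to 2.72). Lower were the metallothionein Mt1, at 518 against 1828 (3.53-fold, 3.35 to 3.72), and the peroxidase Gpx1, at 73.7 against 264 (3.58-fold, 3.12 to 4.12). In the ATF4 and unfolded protein list 7 of 20 were lower and 3 higher (median -0.21, and -0.91 without chromosomes 1, 6 and 10). The amino acid transporter Slc7a5 was at 211 against 478 CPM (2.27-fold lower, 2.08 to 2.47), while Xbp1, the splicing-activated factor of the unfolded protein response, was at 798 against 255 (3.13-fold higher, 2.93 to 3.34) and its target Dnajb9 at 85.7 against 28.2 (3.04-fold, 2.49 to 3.73).

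Exchange with the mother depends on transporters, of which 5 of 20 were higher and 4 lower (median 0.11). Slc40a1, the iron exporter ferroportin, was at 536 against 141 CPM (3.80-fold higher, 3.49 to 4.15, and log2 1.30 relative to chromosome 1) and in 51.3% against 19.8% of wells at 2000 UMIs. Slc34a2, a phosphate transporter, had 215 UMIs against 1 and 0 in pTSCs, in 7.86% of differentiated wells at 2000 UMIs. The glucose transporter Slc2a1 was at 82.7 against 232 CPM (2.80-fold lower, 2.46 to 3.21). In the lysosome list 4 of 20 were higher and 3 lower (median 0.28), with the membrane protein gene Lamp1 at 2951 against 2428 CPM.

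For interferon genes the direction of the list differed with the reference, though not for every member. Of 18 members 11 were lower and 1 higher than in TSCs (median -1.41). Against pTSCs, where 13 could be measured, 7 were higher and 1 lower (median 1.10). In that comparison 20.6% of 11098 autosomal genes were higher and 22% lower. Isg15, a ubiquitin-like protein, stood at 8.30 CPM in differentiated TSCs, 159 in TSCs, 1.64 in pTSCs and 3.45 in blastoid pTSCs. Rtp4 followed the same order of libraries, at 29.2, 209, 1.23 and 11.2 CPM. The membrane protein gene Ifitm3 stood at 34.7, 303, 69.3 and 55.3, with the differentiated library the lowest. In each of the 3 the TSC library is the highest. In TSCs Isg15 was spread over 19.8% of wells at 2000 UMIs and Ifitm3 over 38.1%, against 2.52% and 5.03% of differentiated wells. The class I genes B2m (434 against 705 CPM) and H2-D1 (1049 against 1354), the latter with close relatives, were within 2-fold.

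Interferon-stimulated genes are switched on through an element in their promoters, ISRE, searched here on either strand as GAAA, any 2 bases and GAAA again. The sites are shown for the lower members that hold it. In the 250 bases before the start it was found in 4 of 9 lower members with a promoter in RefSeq (GRCm38.p6), and in 5 of all 15 members with one (the fifth is B2m, within 2-fold). Counted likewise, with a match in any promoter of a gene, it was found in 3.46% of 27025 genes (2.98% of 32851 promoters). Each stretch below is written 5′ to 3′ on the gene's strand, with a match in capitals. Further overlapping matches in the same promoters are left in lower case.
Isg15 (chr4:156200865-156200906, minus strand): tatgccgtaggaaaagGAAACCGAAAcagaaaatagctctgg
Ifit1 (chr19:34640769-34640810, plus strand): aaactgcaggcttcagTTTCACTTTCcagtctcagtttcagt
Oas1a (chr5:120907526-120907561, minus strand): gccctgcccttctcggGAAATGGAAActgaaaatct
Bst2 (chr8:71537577-71537618, minus strand): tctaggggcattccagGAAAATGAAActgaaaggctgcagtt
The matches begin 72, 104, 20 and 130 bases before the start. Of these genes Isg15 has the largest ratio (log2 -4.26), followed by Ifit1 (-2.61, 7 UMIs against 71), Oas1a (-1.28) and Bst2 (-1.05). The last 3 are named for the motif and were chosen after their values were seen. The same search found the sterol element (TCAC, any base, CCAC) in 1 of 9 cholesterol genes and 0 of 4 lower ones (1.22% of all genes with a promoter), and the heat shock element (GAA, any 2 bases, TTC, any 2 bases, GAA) in 2 of 9 heat shock genes and 0 of 4 higher ones (0.514%). These 2, Hspd1 and Hspe1, face each other across 1 shared stretch. A match describes letters, not binding.

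Most markers of other cells had too few counts to be measured. Of 11 fibroblast genes 3 were measured and summed to 39.6 against 39.9 CPM, 3 of 11 macrophage and blood genes to 10.8 against 21.2 and 3 of 8 endothelial genes to 16 against 31. Of 12 primitive endoderm genes 5 were measured (56.8 against 83.5 CPM), and of 11 epiblast genes 4. These 4 summed to 909 against 902 CPM, with a UMI in 72.3% and 76.7% of wells at 2000 UMIs: Utf1 (493 against 741) and Zfp42 (181 against 96.1) were within 2-fold, and Klf2 (186 against 45.5) and Klf4 (49.5 against 19.7) higher. The defining epiblast gene Pou5f1 had under 10 counts. The other members of these lists had under 10 counts over both libraries or no entry.

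CDX2-low TSCs gave an independent and replicated comparison with CDX2-high TSCs in culture. Of 3006 tested genes 84 (2.79%) were higher and 93 (3.09%) lower in CDX2-low libraries by edgeR's quasi-likelihood test. In bulk RNA, fewer cells of a type and less RNA per cell cannot be told apart, and the p-values reflect the scatter among these 6 libraries, which nothing in the labels ties to separate cultures. Of 2507 genes measured on both sides 69 were lower in CDX2-low, and 33 of these (47.8%, and 6.56% of the 503 genes lower in differentiated TSCs) were also lower in differentiated TSCs, beside 20.1% of all 2507. Of 68 higher in CDX2-low, 13 (19.1%) were higher in differentiated TSCs, beside 9.85% of all, and another 13 were lower. The level of some genes differs widely between bulk and single-cell TSCs, as given above for Igf2. The part of this in the overlap was not tested.

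Zic2 stood at 209, 167 and 268 CPM in CDX2-high libraries and at 25.7, 21.6 and 14.8 in CDX2-low libraries, with no overlap (log2 fold change -3.34, SE 0.41, adjusted p = 9.28e-06, edgeR), and was lower in differentiated TSCs too. Nat8l was at 273, 229 and 191 CPM against 103, 72 and 37 (log2 -1.69, SE 0.33, adjusted p = 0.00176, edgeR). Krt8 moved the other way in both data sets, at 190, 198 and 246 CPM in CDX2-high and 857, 655 and 763 in CDX2-low libraries (log2 1.83, SE 0.22, adjusted p = 7.05e-06, edgeR), and so did Jun (log2 2.45, adjusted p = 1.35e-06, edgeR). Id2 shows that the comparisons are not the same: it was at 203, 198 and 243 CPM in CDX2-high and 334, 489 and 578 in CDX2-low libraries, again without overlap (log2 1.14, SE 0.24, adjusted p = 0.00392, edgeR), but 4.48-fold lower in differentiated TSCs. Eomes (log2 -0.83, adjusted p = 0.147, edgeR) and Elf5 (log2 -0.82, adjusted p = 0.0898, edgeR), both lower in differentiated TSCs, did not pass between the CDX2 groups.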

How the data were processed

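RNA was measured with CEL-Seq2. The deposited single-cell tables hold estimated counts of transcripts per gene and well, and the deposited bulk table gives raw counts by gene for each library, per the labels and the values. The submitters' processing notes name STAR 2.5.3a; no source used here gives the genome build, annotation, counting program or treatment of UMIs.

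Single-cell values, all whole numbers, were summed over wells with 2000 or more UMIs outside mitochondrial genes (no doublet caller, since wells were sorted) and divided by that total (CPM). Well numbers follow the plate, so 270 kept numbers occur in both libraries and tie no cells together. Autosomal genes with 10 or more counts over both libraries counted as measured. Each ratio has a conditional binomial interval (exact), a 0 was set to 3 counts, and shares of wells (Clopper-Pearson intervals) use wells thinned to 2000 UMIs. On simulated libraries 96.6% of intervals over 11499 genes held the true ratio. Gene order and promoters come from RefSeq (GRCm38.p6), matched by symbol, with 10316 of 11738 genes placed.

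Bulk counts were fitted with edgeR 4.0.16 (filterByExpr, TMM, glmQLFTest, Benjamini-Hochberg adjusted p under 0.05), CDX2-low minus CDX2-high. On counts simulated with the same dispersion for all genes (3107 genes tested) 166 of 171 genes changed 4-fold were recovered with 3 false calls. Smaller changes were not simulated, so this does not show how well they are found. Bulk totals were 116659 to 272030 counts. DESeq2 1.42.0 was an alternative. Python 3.11.15, numpy 2.4.6, pandas 2.3.3, scipy 1.17.1 and R 4.3.3 were used.

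The cells, lists and tests were chosen with earlier results of these data known. Named are the 15 autosomal genes with the largest fold in each direction (50 or more CPM and a UMI in 25% or more of wells of the higher library, without predicted and ribosomal protein genes), the 5 markers, members of 5 lists (TSC factors, polar trophectoderm, differentiation factors, placental effectors, imprinted genes) and, of each other list, up to 3 members with the largest fold in each direction (20 or more CPM) and 3 nearest to equal. The 42 lists hold 797 entries, of which 611 were measured.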

Additional observations from a re-analysis of the deposited data

Results flagged for a closer look

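In data outside the autosomal comparison, 226 UMIs of 5 Y-linked genes were counted in the differentiated library, of which 127 were of Uty, 62 of Eif2s3y and 33 of Usp9y, while the TSC library, with more UMIs in all, had 0 and the pTSC and blastoid pTSC libraries had 1 and 2. In the opposite direction, the TSC library held 1515 UMIs of Xist and the differentiated library 14, with 474 in pTSCs and 808 in blastoid pTSCs. Erdr1, of the region shared by both sex chromosomes, had 88 UMIs in the differentiated and 815 in the TSC library. These counts were set beside the shift of chromosomes 1, 6 and 10. Differentiated wells with a Y-linked UMI (139) had a median of 21.2% of UMIs from these chromosomes, and those without (179) 21.1%. With 226 Y-linked UMIs over 318 wells, a well without one is not shown to lack Y-linked RNA. This split therefore does not separate cells with and without it, and whether the chromosome shift goes with Y-linked RNA was not tested. The cause of either difference was not tested.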

How the results depend on the processing

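Against 2046 higher and 2093 lower genes, thinning each well to 2000 UMIs left 1242 and 1156 (of 7042 measured genes), and a minimum of 50 counts per gene 1030 and 1199 (of 7638), where fewer genes are tested. The other planned settings (1000 or 5000 UMIs per well, the deepest 5% of wells left out, scaling with mitochondrial genes, to the median or to autosomes) gave 1689 to 2052 higher and 1976 to 2477 lower. After seeing the data, centring each autosome was added (1826 and 2162), and leaving out chromosomes 1, 6 and 10 (1419 and 1921 of 9754). Of 174 named genes at 2-fold or more, 149 kept their call in all 10 settings. Over the 42 lists and these settings, 23 list medians left the range between the medians of their members' lower and upper interval bounds. For bulk, DESeq2 gave 27 higher and 48 lower genes in place of 84 and 93, the cause was not tested, and leaving out 1 library in turn gave 31 to 91 and 50 to 98, with 41 and 54 without CDX2-high library 37, 42 and 60 without 38, and 31 and 50 without 39. Zic2, Nat8l, Krt8, Jun and Id2 passed under every bulk setting. No paired analysis was possible because replicate numbers run on between the bulk groups and single-cell groups have 1 library. Depth limits genes with few UMIs, as given beside them.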
